A study of Homo sapiens with 12 samples.

Results

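The PI3K and AKT branch of insulin signalling was described through 9 of the 26364 genes in the count table. These 9 were chosen by name, with earlier results of these data known. They are the catalytic subunits *PIK3CA* and *PIK3CB*, the regulatory subunits *PIK3R1* and *PIK3R2*, the kinases *PDPK1*, *AKT1* and *AKT2*, the lipid phosphatase *INPPL1* and the protein phosphatase *PHLPP1*. All 9 passed the filter on low counts and were among the 13852 genes tested. RNA-seq was carried out on HepG2 cells, an established line from a human liver cancer, at 0, 5, 10, 30 and 240 min of insulin, with 2 replicates at each time. The treatment text of every library, those at 0 min included, gives 3 nM insulin and 5 min, and the times used here are those of the library titles. All groups were unmodified HepG2 cells and differed in the labels only by time. A library kept for 240 min without insulin was not analysed here, so insulin and time since the medium change cannot be told apart. A further library was ChIP-seq for the insulin receptor (IR) in doubly fixed HepG2 cells, from which 1971 peaks were deposited. It had an input library, and the labels of both give 3 nM insulin. No IR ChIP-seq without insulin was analysed here.

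When insulin binds its receptor, the class IA PI3K, a dimer of a catalytic p110 subunit and a regulatory p85 subunit, is drawn to phosphorylated adaptor proteins and makes the lipid PIP3 at the plasma membrane. PIP3 recruits AKT and PDPK1, which phosphorylates the activation loop of AKT, and active AKT in the liver promotes glycogen and lipid synthesis and keeps FOXO factors out of the nucleus. The pathway is turned down by phosphatases that remove a phosphate from PIP3, such as INPPL1 (SHIP2), or from AKT itself, such as PHLPP1. RNA levels of these genes say nothing of the phosphorylation through which the pathway acts within minutes.

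Reads counted on genes totalled 18347109 to 45005769 per library, and spike-in transcripts held a further 1.59% to 2.36% of the counts. The 9 genes had at least 426 counts in every library, which was the lowest count of *PIK3CA*. The liver lineage was checked with 8 markers, which summed to 74459 to 74965 CPM (counts relative to library size, TMM-scaled) at 0 min and 63641 to 75890 CPM at 240 min. *APOB* and *ALB* made up most of that sum. Of the 8, *HNF4A* was called higher at 240 min than at 0 min (log2 fold change 0.30, adjusted p = 0.000101 in edgeR), and *ALB* was at -0.29 (adjusted p = 0.0503). Of 6 markers of other cell types, *PTPRC* had no counts in any library, and the 6 summed to 101 to 102 CPM at 0 min and 89.2 to 93.1 CPM at 240 min. *CD68* (36.3 to 45.3 CPM over the libraries) and *ACTA2* (42.3 to 65.5 CPM) made up most of that sum. *PECAM1*, *VWF* and *COL1A1* reached at most 3.00 CPM. The smooth muscle actin *ACTA2* was lower at 240 min than at 0 min (log2 fold change -0.30, adjusted p = 0.00215 in edgeR's quasi-likelihood test). The part of these markers in the changes below was not tested. In RNA from whole cultures, fewer cells of a kind and less RNA per cell cannot be told apart.

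IR peaks lay within 5 kb of the gene body of 2 of the 9 genes, *PIK3CA* and *PHLPP1*, against 9.70% of all genes in the table, and both lay at the start of the gene. Positions are in hg19. The peak at *PIK3CA* (chr3:178865891-178866188) covered 298 bases upstream of the gene start as the abundance table gives it, and 2 of the transcripts in GENCODE begin inside it. Its score of 60 was below the median of 79 over the list, and 39.4% of the 1971 peaks scored lower. The peak at *PHLPP1* (chr18:60382109-60382701) covered 593 bases across the gene start and had a score of 379, with 83.2% of the peaks scoring lower. The authors' annotation called both promoter peaks, but gave *RNU6-142P*, at a distance of 16160 bases, as the gene nearest to the second. No peak lay within 5 kb of *PIK3CB*, *PIK3R1*, *PIK3R2*, *PDPK1*, *AKT1*, *AKT2* or *INPPL1*. The list comes from 1 library, so neither peak has a replicate check.

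**Figure D1:**
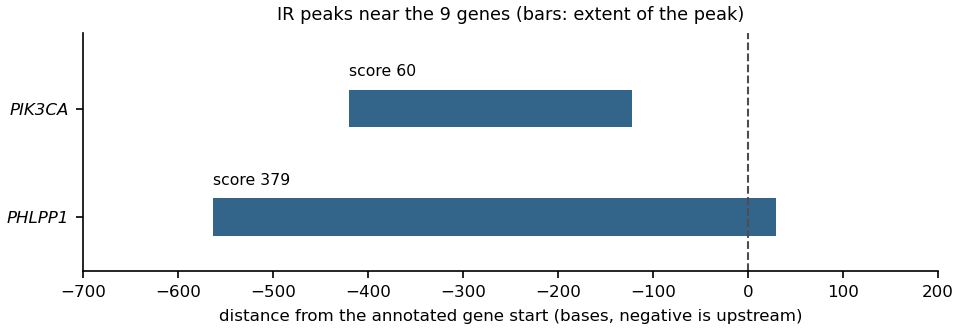
Extent of the IR peaks near the 9 genes, as distance in bases from the gene start (dashed line, negative is upstream), with the score of each. The *PIK3CA* peak (score 60) ended 123 bases before the gene start, and the *PHLPP1* peak (score 379) ran from 563 bases before it to 29 bases after it.

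The sequences under these peaks are shown because these are the only places near the 9 genes where the receptor was called on chromatin. Exons were left out, so the *PIK3CA* stretch is the 137 bases between the annotated exons inside its peak (chr3:178866008-178866144) and the *PHLPP1* stretch is the 300 bases before the gene start (chr18:60382372-60382671). Both are from GRCh37, plus strand, 5′ to 3′. Capitals mark, on either strand, GC boxes (GGGCGG) and GTAAACA, which FOXO factors can bind and which is called the FOXO element here. The letters do not say which factor, if any, binds there.
PIK3CA: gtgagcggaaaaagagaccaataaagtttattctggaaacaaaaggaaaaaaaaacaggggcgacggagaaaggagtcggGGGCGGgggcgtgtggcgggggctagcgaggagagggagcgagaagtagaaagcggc
PHLPP1: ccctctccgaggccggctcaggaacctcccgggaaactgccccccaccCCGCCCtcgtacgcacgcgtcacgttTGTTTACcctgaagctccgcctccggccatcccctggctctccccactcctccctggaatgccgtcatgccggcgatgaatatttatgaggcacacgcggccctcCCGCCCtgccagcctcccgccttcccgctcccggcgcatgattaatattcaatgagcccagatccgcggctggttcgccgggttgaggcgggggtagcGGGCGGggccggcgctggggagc
The *PIK3CA* stretch holds 1 GC box and the *PHLPP1* stretch holds 3.

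The FOXO element was 1 of 6 motifs searched on both strands in the 300 bases around the centre of each peak, and it was present in both windows. It occurred in 76 of the 1971 windows of the list, or 3.86%. The element in the *PIK3CA* peak lies in an annotated first exon, and the element in the *PHLPP1* peak lies 226 bases before the gene start, outside exons. The 30 bases around each are printed with the element in capitals (chr3:178865985-178866014 and chr18:60382435-60382464).
PIK3CA: agttcgttgttTGTTTACacgatgtgagcg
PHLPP1: cgcgtcacgttTGTTTACcctgaagctccg
Both elements read TGTTTAC on the plus strand and follow a T. The GC box was also in both windows and in 67.2% of all windows. The CCAAT box (CCAAT, 28.8% of windows) and the ETS core (CCGGAA, 26.2%) were in the *PIK3CA* window alone of the 2. The core ACTACAA, which belongs to a motif associated with HCF-1, was in the *PHLPP1* window alone (17.4% of windows), and the E-box CACGTG (6.44% of windows) was in neither. The windows held 60.3% and 63.0% G and C at *PIK3CA* and *PHLPP1*, below the median of 66.3% over the list.

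RefSeq promoters (GRCh38.p14, 250 bases before to 50 bases after a start) were found for 9 of the 9 genes. A GC box was present in 9 of them and in 45.0% of all 35116 promoters. The FOXO element was present in 1, *PIK3CA*, and in 3.42% of all promoters. The starts in that table are those of RefSeq and are not the gene starts used for the peaks above, so the element can lie inside one window and outside the other. Several of the 9 genes have more than 1 listed promoter, and a gene was counted when any of them held the motif. The shares of all promoters count each promoter once, so the counts and the shares are not like measures. The first listed promoter of each of the 9 genes held 60.7% to 83.3% G and C, beside a median of 58.7% over all promoters. The part of this composition in the GC box count was not tested. A match in these windows is a description of letters and not of binding.

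Compared per transcript length, in the TPM values that the authors deposited, the most abundant RNA at 0 min was that of *AKT1*, at 115 and 108 TPM in replicates 1 and 2. It was followed by *PIK3R2* (79.9 and 83.9 TPM) and *PDPK1* (71.7 and 75.8 TPM). *PHLPP1* (40.5 and 43.5 TPM) and *AKT2* (40.1 and 41.4 TPM) overlapped between replicates, and so did *PIK3R1* (30.5 and 32.2 TPM) and *PIK3CB* (31.0 and 30.0 TPM), with *INPPL1* at 35.8 TPM in both replicates between these pairs. *PIK3CA* had the lowest level, at 22.4 and 23.1 TPM. At 240 min the order was *AKT1*, *PIK3R2*, *PDPK1*, *PIK3R1*, *AKT2*, *PHLPP1*, *INPPL1*, *PIK3CB* and *PIK3CA*, and no neighbours in it overlapped. *PIK3R1* had moved from the seventh place to the fourth, at 44.4 and 42.9 TPM, and *PIK3CA* remained the lowest, at 16.3 and 16.0 TPM.

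Within the first 30 min of insulin, none of the 9 genes passed the threshold of an adjusted p under 0.05 at any time against 0 min. All 10 libraries entered 1 edgeR model, tested by quasi-likelihood, with Benjamini-Hochberg adjustment over all 13852 genes. Of all genes tested, 0% were called at 5 min, 0.137% at 10 min and 0.332% at 30 min. At an unadjusted p under 0.05 the counts were 3 of 9 at 5 min, 0 at 10 min and 0 at 30 min, where 14.3%, 5.13% and 8.12% of all genes reached that level. The 3 at 5 min were *INPPL1* (log2 fold change -0.15, 95% interval -0.26 to -0.04), *PIK3R1* (0.11, 0.004 to 0.23) and *AKT1* (-0.11, -0.22 to -0.002), with adjusted p from 0.262 to 0.346. The likelihood ratio test and limma called 0 of the 9 at these 3 times as well. DESeq2 called 0 at 10 and 30 min and gave the 9 genes no adjusted p at 5 min, where 1 had an unadjusted p under 0.05.

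At 240 min against 0 min, 6 of the 9 genes were called, against 41.0% of all genes. *PIK3R1* rose, where 20.6% of all genes were called higher. *PDPK1*, *PIK3CA*, *PHLPP1*, *INPPL1* and *AKT2* fell, where 20.4% of all genes were called lower. The median log2 fold change of the 9 was -0.15, beside -0.003 over all genes tested. *AKT1*, *PIK3R2* and *PIK3CB* did not pass.

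**Figure D2:**
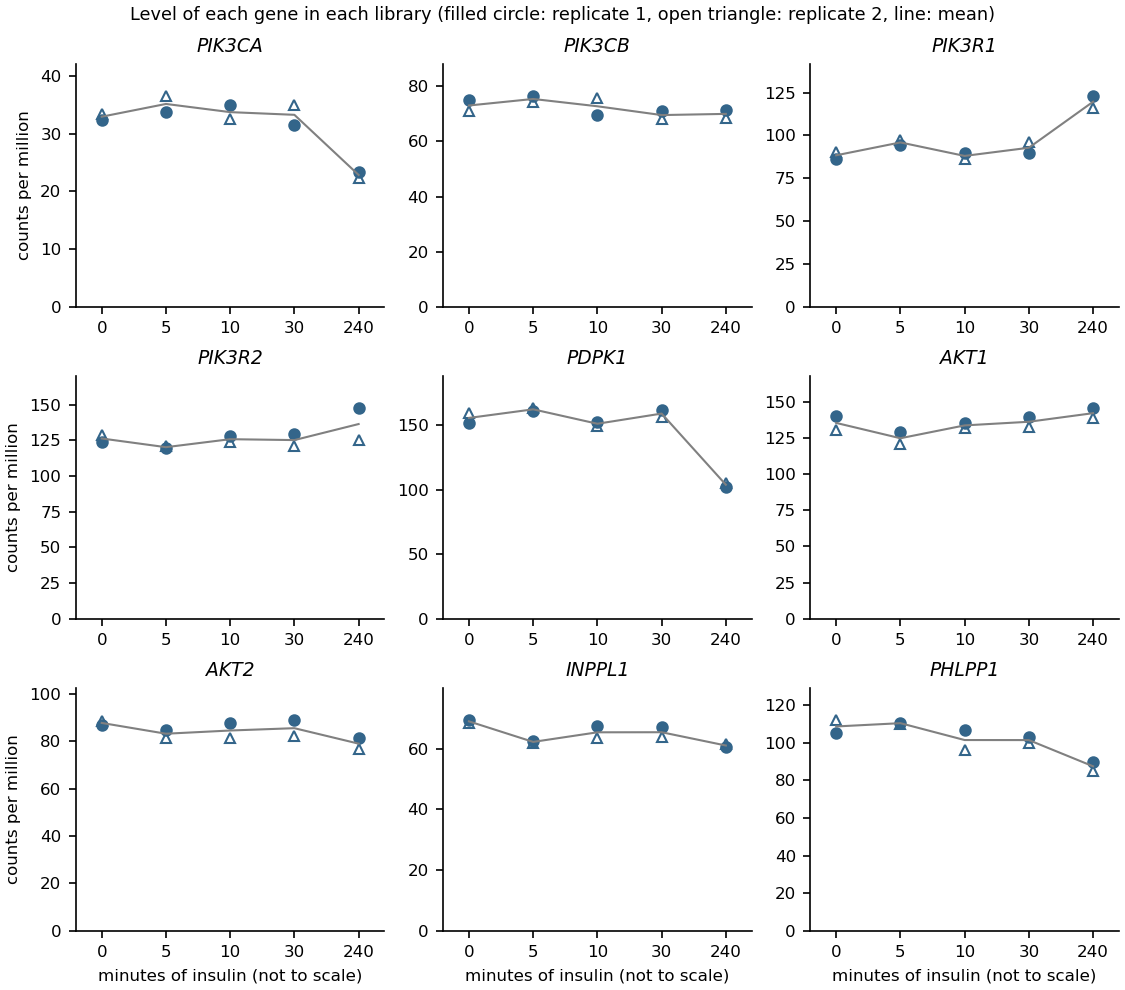
Level in CPM of each of the 9 genes in each of the 10 libraries against minutes of insulin (times evenly spaced, axes from 0), with replicate 1 as a filled circle, replicate 2 as an open triangle and the mean as a line. The step at 240 min is seen in *PIK3CA*, *PDPK1* and *PHLPP1* (down) and in *PIK3R1* (up), with both 240 min libraries outside the range of the 8 earlier libraries. Those of *INPPL1* (60.5 and 61.6 CPM) were also below that range, which began at 61.9 CPM. Of all genes tested, 23.4% had both 240 min libraries above the earlier ones and 21.3% below.

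*PIK3CA* encodes p110α, the catalytic subunit through which insulin chiefly acts in the liver. Its level was 32.4 and 33.5 CPM at 0 min, 33.8 and 36.6 CPM at 5 min, 34.95 and 32.5 CPM at 10 min, 31.6 and 34.97 CPM at 30 min, and 23.3 and 22.4 CPM at 240 min. Both 240 min libraries were below all 8 earlier ones, as was the case for 21.3% of all genes tested. *PIK3CA* fell by 30.7% against 0 min (log2 fold change -0.53, SE 0.07, adjusted p = 1.25e-05). Only 14.4% of the genes tested had a larger absolute change. Part of *PIK3CA* has a near-identical copy elsewhere in the genome, and how reads that fit both were counted is not given in the sources used here.

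*PIK3CB* encodes p110β, the other widely expressed class IA catalytic subunit. It had 74.9 and 71.1 CPM at 0 min, 76.5 and 74.3 CPM at 5 min, 69.6 and 75.9 CPM at 10 min, 71.0 and 68.1 CPM at 30 min, and 71.4 and 68.6 CPM at 240 min. The 0 and 240 min libraries overlapped, and the log2 fold change was -0.06 with a 95% interval of -0.17 to 0.06. Within each library the TPM ratio of *PIK3CB* to *PIK3CA* was 1.38 and 1.30 at 0 min and 1.86 and 1.86 at 240 min, above the 1.21 to 1.41 of the 8 earlier libraries.

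*PIK3R1* encodes p85α and its shorter forms, which stabilise the catalytic subunit and hold it inactive until phosphotyrosine is bound. It had 86.5 and 90.4 CPM at 0 min, 94.7 and 97.3 CPM at 5 min, 90.0 and 86.2 CPM at 10 min, 89.6 and 96.1 CPM at 30 min, and 123 and 116 CPM at 240 min. Both 240 min libraries were above all earlier ones, as in 23.4% of all genes tested. *PIK3R1* rose by 35.2% against 0 min (log2 fold change 0.44, SE 0.05, adjusted p = 2.26e-06). It was called in 12 of 13 other settings that kept all libraries. The exception was scaling by the spike-in totals, with a log2 fold change of 0.32 and an adjusted p of 0.317. The microRNA gene *MIR4454* lies in the *PIK3R1* locus on the same strand.

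*PIK3R2* encodes p85β. It had 124 and 129 CPM at 0 min, 119.5 and 121 CPM at 5 min, 128 and 124 CPM at 10 min, 129.5 and 121 CPM at 30 min, and 148 and 125 CPM at 240 min. The replicates at 240 min lay further apart than those at any earlier time, and replicate 2 was inside the range of the earlier libraries. The log2 fold change against 0 min was 0.11 (95% interval -0.02 to 0.24, adjusted p = 0.156). Without replicate 2 at 240 min it was 0.22 and passed (adjusted p = 0.00651), and without replicate 1 it was -0.02. Against the mean of the 4 earlier times, in place of 0 min, it also passed, at 0.14 (adjusted p = 0.0286).

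The ratio of *PIK3R1* to *PIK3CA* RNA within a library, in TPM, was 1.36 and 1.39 at 0 min and 2.73 and 2.68 at 240 min, an increase of 1.96-fold. In the 8 libraries before 240 min it stayed between 1.33 and 1.47. The summed regulatory to summed catalytic RNA (*PIK3R1* and *PIK3R2* to *PIK3CA* and *PIK3CB*) was 2.07 and 2.18 at 0 min and 3.03 and 2.76 at 240 min. The ratio of *PIK3R2* to *PIK3R1* was 2.62 and 2.6 at 0 min and 2.17 and 1.95 at 240 min. Ratios do not depend on how libraries are scaled to each other. For each of the 7 ratios computed the 240 min libraries lay outside those at 0 min. The two-sided exact permutation test gave p = 0.333, the smallest that 2 libraries against 2 allow. The 7 ratios share genes, and no share over ratios of other gene pairs was computed. Among single genes tested, 23.4% had both 240 min libraries above the 8 earlier ones and 21.3% below.

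**Figure D3:**
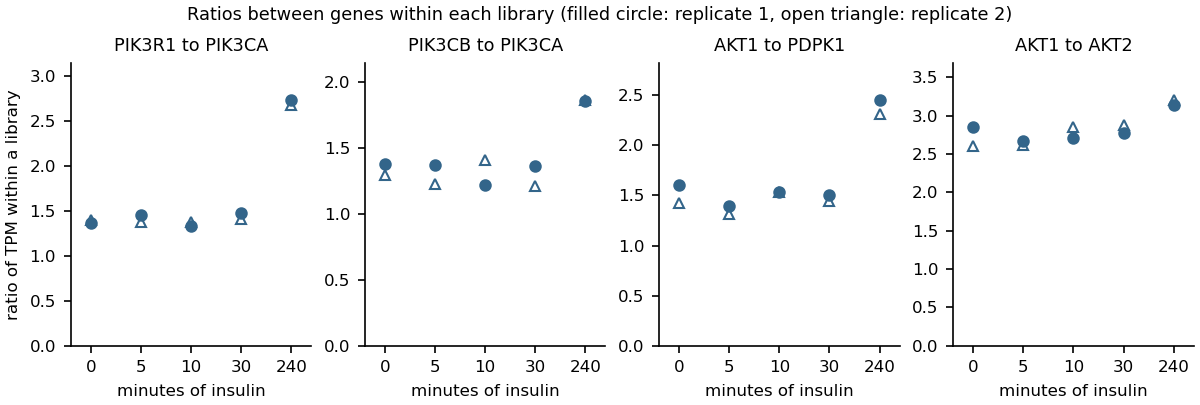
Ratio of TPM between 2 of the genes within each library against minutes of insulin (times evenly spaced, axes from 0), with replicate 1 as a filled circle and replicate 2 as an open triangle. The ratio of *PIK3R1* to *PIK3CA* sits between 1.33 and 1.47 in the 8 libraries up to 30 min and at 2.73 and 2.68 at 240 min. Those of *PIK3CB* to *PIK3CA*, *AKT1* to *PDPK1* and *AKT1* to *AKT2* are also above their earlier range at 240 min. How often ratios of other gene pairs do so was not computed.

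*PDPK1* encodes the kinase that phosphorylates the activation loop of AKT and of related kinases. It had 152 and 159.9 CPM at 0 min, 161 and 163 CPM at 5 min, 153 and 149.8 CPM at 10 min, 162 and 157 CPM at 30 min, and 102 and 106 CPM at 240 min. The 8 earlier libraries spanned 149.8 to 163 CPM, and both 240 min libraries were far below them. *PDPK1* fell by 33.4% (log2 fold change -0.59, SE 0.05, adjusted p = 2.25e-08), the change of largest size among the 9 genes. It was called in 13 of 13 other settings and with each of the 10 libraries left out in turn, and so was *PIK3CA*. A near-identical copy, *PDPK2P*, lies downstream on the other strand and has no row in the count table. A transcribed pseudogene next to *PDPK1*, *LOC652276*, had 32 to 73 counts per library, a total of 1.13% of those of *PDPK1*. Its likeness to *PDPK1* was not checked, so this share does not measure reads that could come from *PDPK2P*.

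Over the 10 libraries, the genes whose log2 CPM followed that of *PDPK1* most closely were *GPBP1L1*, *CCNG2*, *GDPD1*, *IGF1R* and *GIGYF1*, each with a Pearson correlation of 0.996. *CCNG2*, which encodes cyclin G2, went from 35.2 to 11 CPM between 0 and 240 min, and *IGF1R*, which encodes the receptor of insulin-like growth factor 1, from 227 to 151 CPM. Correlations over 0.9 with *PDPK1* were reached by 1180 genes, and the points share the single step between 30 and 240 min. Among the 9, *PIK3CA* had a correlation of 0.96 with *PDPK1*, *PHLPP1* of 0.88 and *PIK3R1* of -0.89.

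*AKT1* and *AKT2* encode AKT isoforms, of which AKT2 is the one most tied to glucose metabolism. *AKT1* had 140.4 and 130.2 CPM at 0 min, 129 and 121 CPM at 5 min, 135 and 132 CPM at 10 min, 139.5 and 133 CPM at 30 min, and 146 and 138 CPM at 240 min. Its groups at 0 and 240 min overlapped, and the log2 fold change was 0.07 with a 95% interval of -0.04 to 0.19, turning to -0.05 under spike-in scaling. *AKT2* had 87.0 and 88.6 CPM at 0 min, 84.9 and 81.6 CPM at 5 min, 87.9 and 81.3 CPM at 10 min, 89.1 and 82.1 CPM at 30 min, and 81.5 and 76.6 CPM at 240 min. The 240 min libraries were below those at 0 min but overlapped the range of the 8 earlier ones.

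*AKT2* fell by 9.90% against 0 min (log2 fold change -0.15, SE 0.06, adjusted p = 0.0393). The call held in 7 of 13 other settings, where the adjusted p ran from 0.0179 to 0.428, and was lost without replicate 1 at 0 min (adjusted p = 0.0778), replicate 2 at 0 min (0.173) or replicate 2 at 240 min (0.226). Against the mean of the 4 earlier times, which is not among the 13, *AKT2* did not pass in the same edgeR fit (log2 fold change -0.11, adjusted p = 0.0574). The TPM ratio of *AKT1* to *AKT2* was 2.86 and 2.6 at 0 min and 3.14 and 3.20 at 240 min. That of *AKT1* to *PDPK1* was 1.6 and 1.42 at 0 min and 2.45 and 2.31 at 240 min.

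*INPPL1* encodes SHIP2, which removes the 5-phosphate of PIP3. It had 69.5 and 68.5 CPM at 0 min, 62.5 and 61.9 CPM at 5 min, 67.4 and 63.4 CPM at 10 min, 67.1 and 63.7 CPM at 30 min, and 60.5 and 61.6 CPM at 240 min. The 2 libraries at 0 min were the highest of the 10, and those at 5 min were close to those at 240 min. Both 240 min libraries were below all 8 earlier ones, as in 21.3% of all genes tested, but by a small margin (lowest earlier level 61.9 CPM). *INPPL1* fell by 11.5% at 240 min against 0 min (log2 fold change -0.18, SE 0.05, adjusted p = 0.0118). The call held in 9 of 13 other settings, with an adjusted p from 0.00759 to 0.374, and was lost without replicate 1 at 0 min (0.0529) or replicate 1 at 240 min (0.0775), and against the mean of the 4 earlier times (log2 fold change -0.10, adjusted p = 0.0589).

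*PHLPP1* encodes a phosphatase that dephosphorylates the hydrophobic motif of AKT. It had 105 and 112 CPM at 0 min, 110.5 and 110.1 CPM at 5 min, 107 and 96.0 CPM at 10 min, 103 and 99.9 CPM at 30 min, and 89.9 and 85.0 CPM at 240 min. Both 240 min libraries were below all 8 earlier ones. *PHLPP1* fell by 19.6% against 0 min (log2 fold change -0.31, SE 0.06, adjusted p = 0.000174), and was called in 12 of 13 other settings, the exception being spike-in scaling (log2 fold change -0.43, adjusted p = 0.151). The ratio of *INPPL1* to *PHLPP1* in TPM was 0.884 and 0.823 at 0 min and 0.907 and 0.970 at 240 min.

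**Figure D4:**
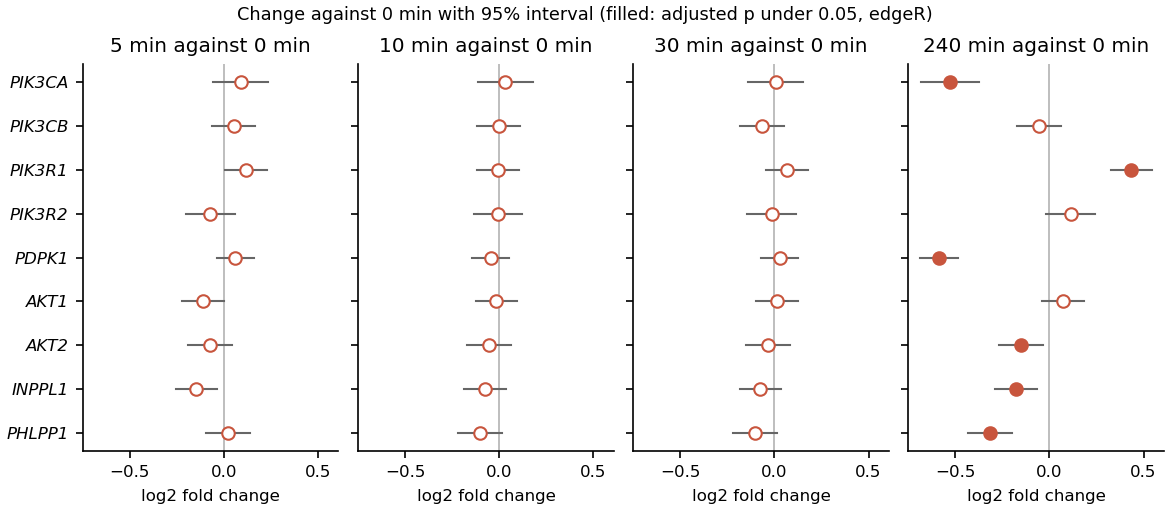
Log2 fold change of each of the 9 genes at 5, 10, 30 and 240 min against 0 min, with 95% intervals as lines and calls at an adjusted p under 0.05 (edgeR) filled. All points up to 30 min are open and lie between -0.15 and 0.11, and at 240 min 6 are filled, from -0.59 (*PDPK1*) to 0.44 (*PIK3R1*).

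Against 30 min, which shares the 240 min libraries with the comparison above, 4 of the 9 genes were called at 240 min, against 38.2% of all genes. *PIK3R1* rose (log2 fold change 0.37, SE 0.05, adjusted p = 1.75e-05), where 19.8% of all genes were called higher. *PDPK1* (-0.62, SE 0.05, adjusted p = 1.44e-08), *PIK3CA* (-0.54, SE 0.08, adjusted p = 1.48e-05) and *PHLPP1* (-0.21, SE 0.06, adjusted p = 0.00594) fell, where 18.4% were called lower. *AKT2* (-0.11, 95% interval -0.23 to 0.005) and *INPPL1* (-0.10, 95% interval -0.22 to 0.01) did not pass. *PHLPP1* kept its call in 9 of 13 other settings, with an adjusted p of up to 0.680 under spike-in scaling. It was lost in the 3 settings with limma on TPM as well, and without replicate 2 at 240 min (adjusted p = 0.0568).

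The F test over the 5 times, which singles out no time, called *PDPK1* (adjusted p = 2.60e-08), *PIK3R1* (5.18e-06), *PIK3CA* (1.34e-05) and *PHLPP1* (0.000675), that is 4 of 9 genes against 38.3% of all genes in edgeR's quasi-likelihood fit. The adjusted p of the other 5 ran from 0.0677 (*INPPL1*) to 0.384 (*PIK3CB*).

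The rest of the pathway was read from a list of 51 genes, of which 48 were tested. None was called at 5, 10 or 30 min, and 13, 3 and 5 of the 48 had an unadjusted p under 0.05 at these times, where 14.3%, 5.13% and 8.12% of all genes did. At 240 min against 0 min 10 rose and 20 fell, where 20.6% of all genes were called higher and 20.4% lower, or 41.0% in either direction. The median log2 fold change of the 48 was -0.16, beside -0.003 over all genes. The counts by role below are read against the same shares. The 6 with the smallest adjusted p were *PIK3R3*, *TSC1*, *INSR*, *PIK3CD*, *RICTOR* and *PIK3IP1*, and the other genes below were named after their values were seen.

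Among PI3K subunits and accessory genes, 2 of 7 rose and 4 fell. *PIK3R3*, which encodes the regulatory subunit p55γ, rose (log2 fold change 1.08, SE 0.08, adjusted p = 5.11e-09), as did *PIK3C2A* of class II (0.18). *PIK3CD*, which encodes the catalytic subunit p110δ, fell (-0.72, SE 0.07, adjusted p = 1.15e-07), and so did *PIK3IP1*, a membrane protein that inhibits the p110 subunits (-1.13, SE 0.12, adjusted p = 7.48e-07), and the class III genes *PIK3C3* (-0.45) and *PIK3R4* (-0.40). Of the class IA genes measured, those called higher were thus regulatory (*PIK3R1*, *PIK3R3*) and those called lower were catalytic (*PIK3CA*, *PIK3CD*). *PIK3R2* and *PIK3CB* did not pass, and *PIK3R1* did not pass under spike-in scaling (adjusted p = 0.317 in edgeR).

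Among AKT regulators and related kinases, 2 of 10 rose and 3 fell, so that 5 of 10 were called against 41.0% of all genes. The risers were *TRIB3* (0.64) and *THEM4* (0.68), which encode proteins described as binding and inhibiting AKT. The fallers were *RICTOR* (-0.52, SE 0.06, adjusted p = 5.92e-07), the scaffold of the complex that phosphorylates the hydrophobic motif of AKT, *MTOR* (-0.27) and *RPTOR* (-0.17). Among the other phosphatases, 2 of 10 rose, *PHLPP2* (0.28), the paralogue of *PHLPP1*, and *PPP2CA* (0.20), the catalytic subunit of PP2A. Those that fell included *INPP5K* (-0.46) and *INPP5D* (-0.40), which encodes SHIP1. The paralogues *PHLPP1* and *PHLPP2* were thus called in opposite directions, and *INPPL1* and *INPP5D* in the same direction.

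Of 15 AKT substrates and readouts 3 rose, *MDM2* (0.32), *PFKFB2* (0.27) and *RHEB* (0.23), and 7 fell, with *TSC1*, a brake on mTORC1, showing the smallest adjusted p (-0.72, SE 0.06, adjusted p = 3.43e-08). Of 6 genes upstream of PI3K, the tyrosine phosphatase gene *PTPN1* rose (0.41). *INSR* (-0.61, SE 0.06), *IRS1* (-0.47, SE 0.05) and *IRS2* (-0.82, SE 0.28) fell. Their adjusted p in edgeR was 8.32e-08, 1.41e-06 and 0.0239, in that order. Against 30 min, 11 of the 48 rose and 19 fell, where 19.8% of all genes were called higher and 18.4% lower. All values in these 3 paragraphs are log2 fold changes at 240 min against 0 min unless a level is named.

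**Figure D5:**
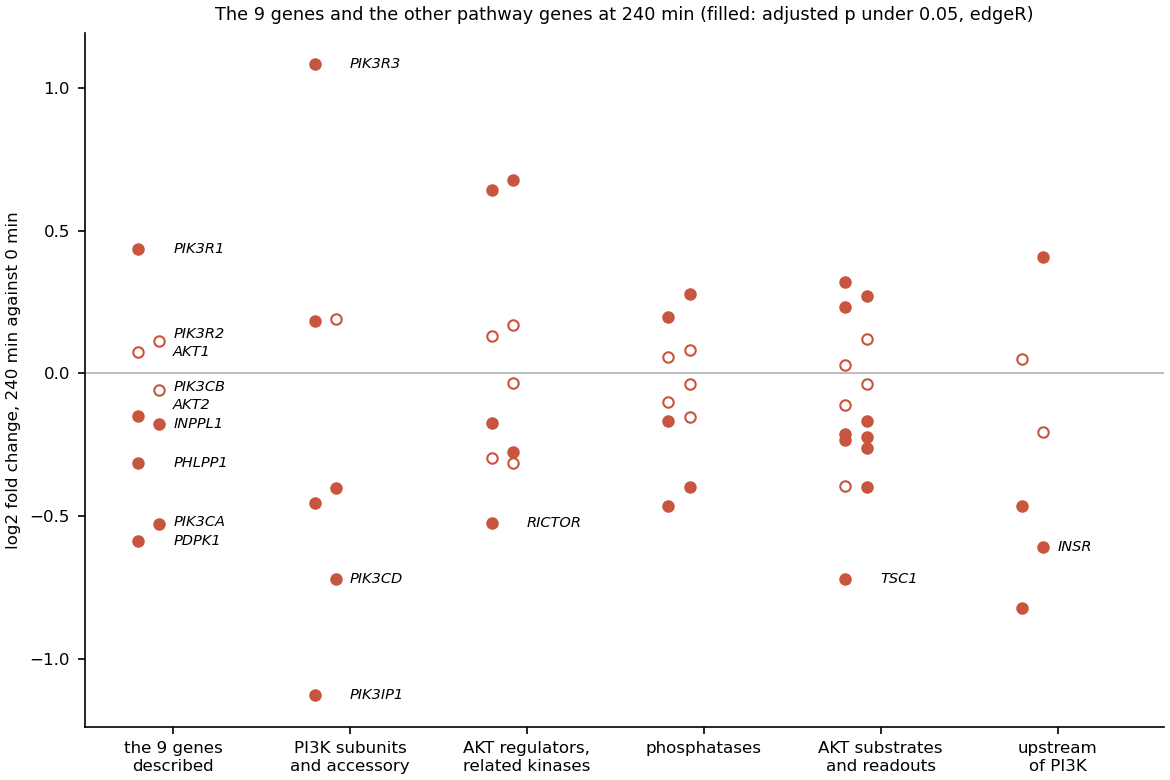
Log2 fold change at 240 min against 0 min of the 9 genes and of the 48 other pathway genes tested, in columns by role, with calls at an adjusted p under 0.05 (edgeR) filled and the 9 genes and the 6 others with the smallest adjusted p named. The points run from -1.13 (*PIK3IP1*) to 1.08 (*PIK3R3*), with 10 of the 48 called higher and 20 called lower.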

How the data were processed

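RNA-seq counts and IR peaks of HepG2 cells were taken as deposited. Per the study's methods, the authors aligned trimmed reads to hg19 (STAR 2.6.1d), and the raw counts they deposited are reads per gene on the reverse strand (featureCounts 1.6.4). The authors also deposited StringTie abundances in TPM, and a table of peaks with a score each, from BWA 0.7.17-r1188, MACS2 2.2.7.1 and HOMER. Versions are from the submitters' processing notes and the study's methods.

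Counts were tested with edgeR 4.0.16 in R 4.3.3 (TMM, filterByExpr, quasi-likelihood test, Benjamini-Hochberg adjustment over all genes tested, threshold 0.05), in 1 model of 10 libraries without a replicate block. The 92 spike-in rows stayed out of library sizes and tests. CPM are TMM-scaled, standard errors were computed from each fold change with its F statistic, and intervals are at 95%. The fit was tested on simulated data in which every planted change was larger than those of *AKT2* and *INPPL1*. That simulation does not speak to changes as small as theirs. Whether replicates came from separate cultures is given only as biologically independent samples in the study's methods. Replicates differed by more than sampling noise (chi-square per degree of freedom 2.86 to 6.46). A peak was near a gene when it overlapped the gene body extended by 5 kb. Bases were read from GRCh37, and exons from GENCODE v44lift37.

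The 9 genes, the gene lists, the motifs and the alternatives were chosen with earlier results of these data known. Named were every member in every library, the other pathway genes called with, per comparison, the 6 smallest adjusted p, and the 5 genes correlated most with the member that changed most. Where a count by role was small, further pathway genes were named with their values already seen. Alternatives were DESeq2 1.42.0, limma 3.58.1 on log2 TPM (pseudocount 1 or 0.1, or 1 with genes under a mean TPM of 1 left out), the likelihood ratio test, no filter, at least 10 counts in every library, RLE, upper-quartile and spike-in scaling, thinning to the smallest total, only the times compared, a replicate block, the mean of the 4 earlier times in place of 0 min, and each library left out. Some genes of the pathway list entered its counts and are not reported by name here.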

Additional observations from a re-analysis of the deposited data

How the results depend on the processing

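With 2 libraries per time, small changes such as those of *AKT2* and *INPPL1* rest on single libraries. Under spike-in scaling the median log2 fold change of all genes at 240 min against 0 min was -0.12, and 2 of the 9 genes (*PDPK1* and *PIK3CA*) and 8 of the other pathway genes were called instead of 6 and 30, against 30 min 1 and 6 instead of 4 and 30, and over the 5 times 1 instead of 4. On that scale 1059 of all genes tested were called at 240 min against 0 min instead of 5676, and the cause was not tested. Without a filter on low counts, 3 other pathway genes were called at 5 min instead of 0, *PPP2R1A* (-0.20), *TRIB3* (-0.25) and *RICTOR* (0.23), and the cause was not tested. Leaving out 1 library at a time gave 4 to 6 of the 9 genes and 24 to 31 of the others at 240 min against 0 min, 4 to 4 and 25 to 30 against 30 min, and 4 to 5 of the 9 over the 5 times. A replicate block called 6 of the 9 genes at 240 min against 0 min, 4 against 30 min and 6 over the 5 times, and 0 at 5, 10 and 30 min. Deviations from the mean of the time, by replicate number, correlated by over 0.1 in 2 of 10 pairs of times (-0.12 to 0.13). With 2 libraries per time, this does not settle whether the replicate numbers pair the libraries. With only peaks scoring above the median, or with the gene that HOMER named nearest, 1 gene had an IR peak instead of 2, and with 20 kb around the gene body there were 3, *PDPK1* being added. Among the 9 genes and the 6 other pathway genes with the smallest adjusted p in each comparison at 240 min, none that was called reversed its direction in the settings run, and the remaining pathway genes were rerun as counts.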
